A study of Homo sapiens with 24 samples.

Results

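HCT15 colorectal cancer cells labelled as overexpressing COPS7B were set against HCT116, a different colorectal cancer line, to ask how alike the populations are in RNA and in ribosome footprints. The comparison was drawn by the sample labels alone and takes 8 of the 24 libraries in the series: 2 of input RNA (INPUT) and 2 of ribosome-protected fragments (RPF) from each population. HCT116 cells carry a wild-type label and were grown in RPMI-1640, while HCT15 cells were grown in DMEM, so the medium differs together with the line. The COPS7B population carries the genotype label COPS7B overexpression. Neither the promoter that drives the transgene nor whether the cells are a clone or a pool is stated in the labels. Beside them stand parental HCT15 (wild-type label) and HCT15 labelled PLVX, called the vector population here. SW620, another cancer line, and 841CON, labelled as normal colon epithelium, enter only where a result needs a reference. All cells received cycloheximide at 100 µg/mL for 10 minutes, which halts elongating ribosomes.

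Ribosome profiling sequences the mRNA fragments that a ribosome shields from nuclease, and the input library gives the RNA of the same lysate. Dividing footprints by RNA for each gene gives its translational efficiency (TE), a measure of how densely ribosomes occupy a message. COPS7B belongs to the COP9 signalosome, which removes the ubiquitin-like protein NEDD8 from cullin ubiquitin ligases and so switches them off. HCT116 and HCT15 are both mismatch-repair-deficient colorectal carcinoma lines, but they were derived from different tumours and differ in the genes they silence and express. Cells of one line that carry a transgene are usually set against the same line with an empty vector. Here the other line serves as the yardstick for how far the COPS7B profile lies from its parent.

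Genes appear in the tables as Ensembl identifiers only, and the files do not pair these with symbols or positions. The level of COPS7B itself, which would check the overexpression label, and the markers of colon epithelium were therefore not checked here, and genes are given below as counted sets with 4 identifiers named.

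Gene counts summed to 1997095 and 3340955 in the COPS7B INPUT libraries and to 2274695 and 3172621 in those of HCT116. In footprints the COPS7B libraries held 3955250 and 4307290 counts, and the HCT116 libraries 997844 and 1012751. Of the 20426 genes listed in every table, 14234 and 14518 had a footprint count in the COPS7B libraries but only 8350 and 8448 in those of HCT116. In INPUT the numbers were 13633 and 14496 against 11720 and 11668. Replicate libraries differed little in HCT116 INPUT, HCT116 RPF and COPS7B RPF, with a biological coefficient of variation of 0.0372, 0.0660 and 0.0391. It was 0.214 in COPS7B INPUT. No replicate files were identical, so both libraries of every group entered the tests. The labels do not say that replicates came from separate cultures, so the p-values below reflect only scatter between libraries, which may be technical. That scatter was estimated in a single fit of all 24 libraries. The fit includes groups that varied more, such as 841CON INPUT (0.792) and parental HCT15 INPUT and RPF (0.635 and 0.680). The 8 tables of the COPS7B and vector populations carry 5 summary lines that the other 16 lack, so the COPS7B and HCT116 tables were not written in the same way, and that difference cannot be told apart from the difference between the populations.

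Several libraries go against what their labels lead one to look for, and these measurements bear on every result below. In input RNA the COPS7B libraries lay about as far from the other HCT15 populations as from HCT116. Difference was measured as the root mean square of the log2(CPM + 1) differences over 11938 genes that passed a filter on low counts, where the CPM of a gene divides its count by the library's trimmed-mean-scaled total of shared-gene counts. The COPS7B INPUT libraries differed from those of HCT116 by 1.83 on average over 4 library pairs, with a range of 1.82 to 1.85. They differed by 1.87 (1.81 to 1.91) from the vector libraries and by 2.04 (1.89 to 2.19) from parental HCT15. SW620, at 1.98 (1.92 to 2.03), was about as near as parental HCT15, so such nearness was not particular to HCT116. The difference from 841CON was 2.32 (2.17 to 2.46). Parental and vector HCT15 differed from each other by 1.13 (1.00 to 1.22). Replicates differed by 0.518 in COPS7B, 0.392 in HCT116, 0.664 in the vector and 1.28 in parental HCT15, whose libraries thus stood farther apart than parental from vector did on average. The order of the nearest neighbours was not stable: with a pseudocount of 10 CPM the vector came first (1.057 against 1.075 for HCT116), as it did among 5038 genes averaging at least 50 counts in each population (0.859 against 0.971, with parental HCT15 at 1.07). Under both settings, as in the main one, parental HCT15 was farther from the COPS7B libraries than HCT116 was.

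**Figure D1:**
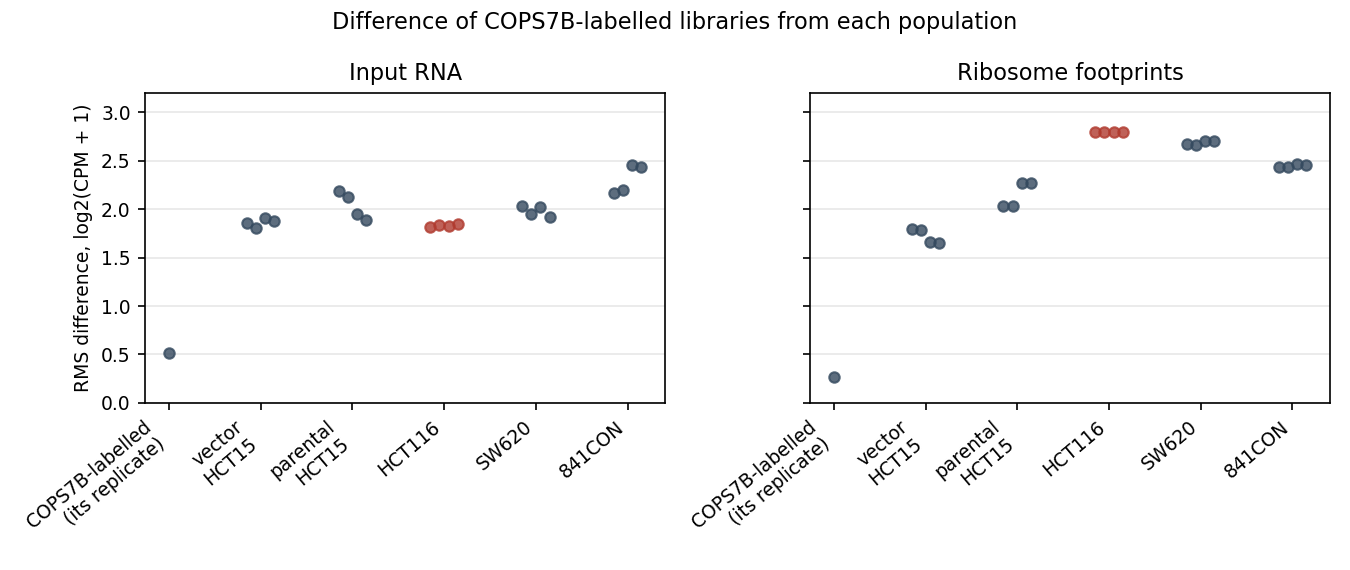
Each point is a pair of libraries, 1 of them COPS7B-labelled, and its height is the root mean square difference in log2(CPM + 1) over 11938 genes, for input RNA on the left and footprints on the right. In input RNA the HCT116 pairs (1.82 to 1.85) lie within the range of the vector pairs and below the parental HCT15 pairs, whereas in footprints they lie highest (2.80).

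Correlation across genes, which are not independent replicates, gave the same order of HCT116, the vector and parental HCT15 in input RNA. Pearson's r over 11938 genes was 0.675 between COPS7B and HCT116 libraries, 0.606 with the vector and 0.585 with parental HCT15, each a mean over 4 library pairs. With SW620 it was 0.584, level with parental HCT15, and with 841CON 0.519. Between parental and vector HCT15 Pearson's r was 0.889. Counted gene by gene, the mean COPS7B level was nearer to HCT116 for 5892 genes (49.4% of 11938), nearer to parental HCT15 for 5745 and equally near for 301. Against the vector, 39.8% of genes were nearer to HCT116.

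Footprints placed the populations otherwise. The COPS7B RPF libraries were nearest to the vector (1.73, from 1.65 to 1.80), then to parental HCT15 (2.15), and differed most from HCT116 (2.80 in all 4 pairs) by the root mean square. By Pearson's r across genes the gap was small, at 0.594 with HCT116 against 0.603 with parental HCT15 and 0.683 with the vector, and SW620 was the least like at 0.477. The HCT116 footprint libraries were as far from parental HCT15 (2.80) and from the vector (2.74) as from the COPS7B population. The mean COPS7B footprint level was nearer to HCT116 than to parental HCT15 for 33.7% of genes, and nearer to HCT116 than to the vector for 26.8%. Among 3076 genes averaging at least 50 footprint counts in each population, the difference was 1.21 from HCT116, 1.34 from parental HCT15 and 1.06 from the vector. Of these genes, 51.7% were nearer to HCT116 than to parental HCT15. That cut drops genes with few or no footprint counts in the shallow HCT116 libraries. Over all genes that passed the filter, 3226 had no HCT116 footprint count and 141 had none in COPS7B. The change of order between HCT116 and parental HCT15 is therefore at least partly set by the choice of genes. With every deeper footprint library thinned to 997844 counts, an alternative added after the data had been seen, the difference was 2.83 from HCT116, 2.28 from parental HCT15 and 1.84 from the vector. At equal depth over all footprint libraries, set by the shallowest SW620 library, HCT116 was not the farthest of these, at 4.21 against 4.26 for parental HCT15 and 4.17 for the vector.

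The footprints of each population were also set against the input RNA of every population by Spearman's rho over the same genes, as a description. COPS7B footprints followed their own input at 0.862, then the input of HCT116 at 0.662, of the vector at 0.621 and of parental HCT15 at 0.550. Among the other populations, the input RNA of HCT116 thus ranked first for COPS7B footprints by this measure. Vector footprints followed their own input at 0.823. HCT116 footprints followed their own input at only 0.640, lower than the 0.689 at which parental HCT15 footprints and the 0.695 at which vector footprints followed HCT116 input. Every other population followed its own input at 0.729 or more.

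Genes that were plainly present in one line and absent from another were also counted. A gene was called on at 10 CPM or more in both libraries of a group, and off at 0 counts in both, with CPM taken from library totals without trimmed-mean scaling for these sets and wherever genes are called on. By input RNA, without use of the COPS7B libraries, 87 genes were on in HCT116 and off in both parental and vector HCT15, and 124 were on in both of these and off in HCT116. Of the 87 HCT116 genes, 43 were on in the COPS7B input RNA (49.4%, 95% exact binomial interval 38.5 to 60.4) and 17 were off. SW620 had 19 of them on and 841CON had 5. Among all 6511 genes off in both other HCT15 populations, 3.84% were on in COPS7B input, 1.34% in HCT116 and 1.24% in SW620.

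Footprints gave nearly the same count. The COPS7B RPF libraries had 45 of the 87 HCT116 genes on (51.7%, interval 40.8 to 62.6), while the parental and vector footprints had none on, although 57 of the 87 had some count below that level in the vector footprints. The HCT116 footprints had 39 of these genes on, fewer than the COPS7B footprints did. The COPS7B footprints had more genes on in general, however. Among all 6511 genes off in both other HCT15 populations, 4.38% were on in COPS7B footprints and 1.95% in HCT116 footprints. Summed over the set, HCT116 input stood at 3599 and 3623 CPM, COPS7B input at 2693 and 2488 CPM, and parental and vector input at 0 by the choice of the genes. In footprints the sums were 2476 and 2479 CPM in COPS7B, 2710 and 2543 in HCT116, 33.9 and 4.27 in parental HCT15, and 74.7 and 135 in the vector.

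Of the 124 genes on in parental and vector HCT15 and off in HCT116, 36 were on in COPS7B input RNA (29.0%, interval 21.2 to 37.9) and 17 were off. That number lay between the 40 in SW620 and the 32 in 841CON, populations that are not HCT15. Among all 8463 genes off in HCT116 input, 5.52% were on in COPS7B input, 2.72% in SW620 and 4.41% in 841CON. In footprints 39 were on in COPS7B (31.5%, interval 23.4 to 40.4), against 79 in parental HCT15 and 95 in the vector. The footprint shares on among the 8463 genes were 6.32% in COPS7B, 1.90% in parental HCT15 and 2.84% in the vector. The summed input level of these genes was 1973 and 2209 CPM in COPS7B, against 6337 and 7227 in parental HCT15 and 8252 and 6593 in the vector. The intervals cover counting of genes only, and these sets and their thresholds were chosen after the data had been seen.

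**Figure D2:**
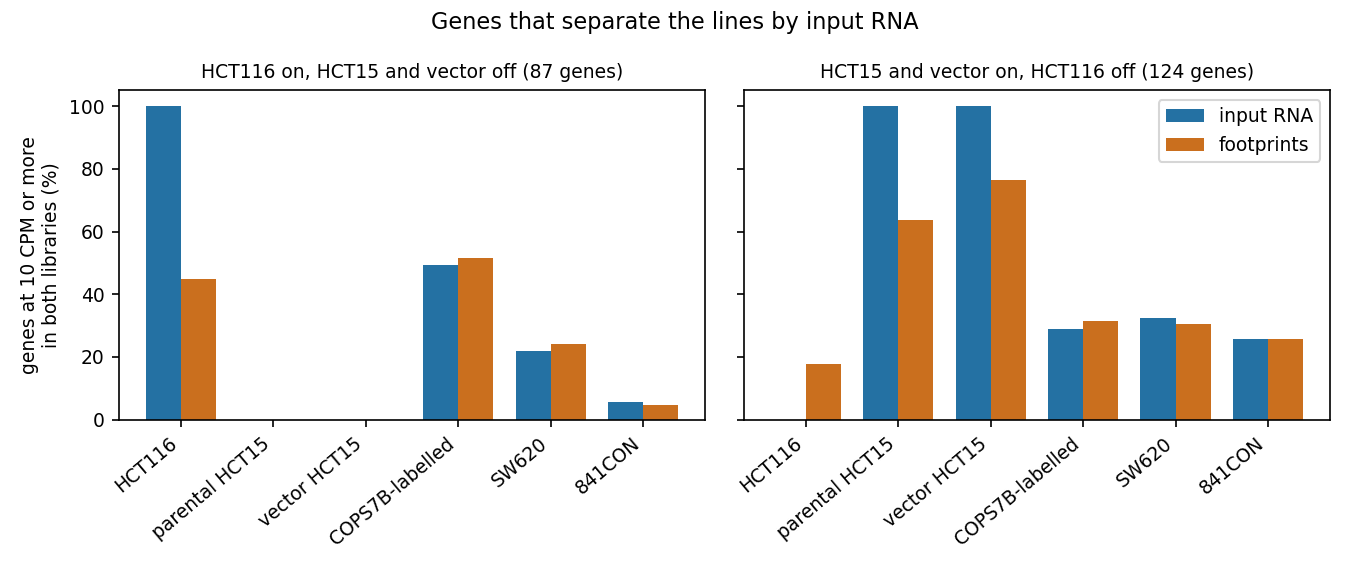
Bars give the share of genes at 10 CPM or more in both libraries of a population, for 87 genes chosen as on in HCT116 input and off in parental and vector HCT15 input (left), and for 124 genes chosen the other way (right). The input bars of HCT116, parental and vector HCT15 are fixed at 0 or 100% by that choice, while in the COPS7B population 49.4% of the first set and 29.0% of the second were on in input RNA.

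The COPS7B population also had genes of its own. Input RNA of 149 genes was on in COPS7B and off in HCT116, parental HCT15 and the vector, whereas 22 genes were on in all of these and off in COPS7B. With up to 3 counts taken as off these numbers were 263 and 64, and with on set at 20 CPM they were 78 and 10. The rules are unlike, since the first asks for a gene on in a single population and the second for one on in several. Over all 20426 shared genes, 49.5% were on in COPS7B input, 41.8% in HCT116, 40.1% in parental HCT15 and 44.7% in the vector. The size of the first number against the second is therefore not a measure of genes particular to COPS7B. Of the 149, 121 were on in COPS7B footprints, where they summed to 6495 and 6390 CPM. The same genes summed to 31.9 and 29.3 CPM in parental HCT15 footprints and to 215 and 371 in the vector footprints, where 71 and 87 of them had a count. In HCT116 footprints, whose input held no count for any of them by the choice of the set, they summed to 1831 and 1833 CPM, with counts in 43 and 35 genes. A single gene gave 29.4% and 28.1% of those HCT116 counts, and 5 genes gave 57.1% and 58.7%. SW620 had 5 of the 149 on in input and 841CON had 1.

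Input RNA differed between COPS7B-labelled HCT15 and HCT116 for 2856 of 11938 genes, 23.9% of those tested, with 1653 higher (13.8%) and 1203 lower (10.1%) in the COPS7B population (edgeR's quasi-likelihood test, Benjamini-Hochberg adjusted p under 0.05, two-sided, n = 2 per group). Most changes were large: 2812 of the called genes differed by more than 2-fold and 1162 by more than 16-fold as fitted, and the median called change was 2.99 on the log2 scale. Zeros carried much of the higher side, since 653 of the 1653 higher genes had no count in either HCT116 input library, while 81 of the 1203 lower genes had none in COPS7B. Such zeros were more common in HCT116 in general. Over all 11938 genes tested, 1082 had no count in HCT116 input and 244 had none in COPS7B input. Parental HCT15 differed from the same HCT116 libraries for 2717 genes (22.8%) and the vector for 2012 (16.9%). These comparisons share the HCT116 libraries and are given side by side only.

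The balance of the input RNA calls turned with level. Among the least expressed 2985 genes, below 15.3 CPM, 741 were higher and 140 lower in COPS7B, and the median log2 difference of all 2985 was 1.55. Among the most expressed 2985 genes, above 78.1 CPM, 195 were higher and 672 lower, with a median of -0.40. Lower genes accordingly outnumbered higher ones where both populations averaged at least 50 counts (169 higher, 628 lower of 5862 tested) and among genes counted in every compared library (756 and 927). They also did so with close replicate pairs summed into 1 library (184 and 349), at equal depth (73 and 108), and without HCT116 INPUT replicate 1 (555 and 657) or 2 (440 and 633). Without scaling by trimmed means, 76.25% of calls were higher against 57.9% with it, as the median log2 difference of all genes moved from 0.17 to 0.61. The call count fell with either COPS7B INPUT library left out too, to 1686 without replicate 1 and 1411 without replicate 2.

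Whether the COPS7B population differs from HCT116 in another way than the other HCT15 populations do is tested by their direct contrast, in which HCT116 cancels. COPS7B input RNA differed from parental HCT15 for 3162 genes (26.5%) and from the vector for 2088 (17.5%), by the same edgeR test. These numbers are of the same order as the 2856 for HCT116, a different line. With close replicate pairs summed they were 1958 and 1096, against 533 for HCT116, whose own input libraries form such a pair and then give a single library.

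**Figure D3:**
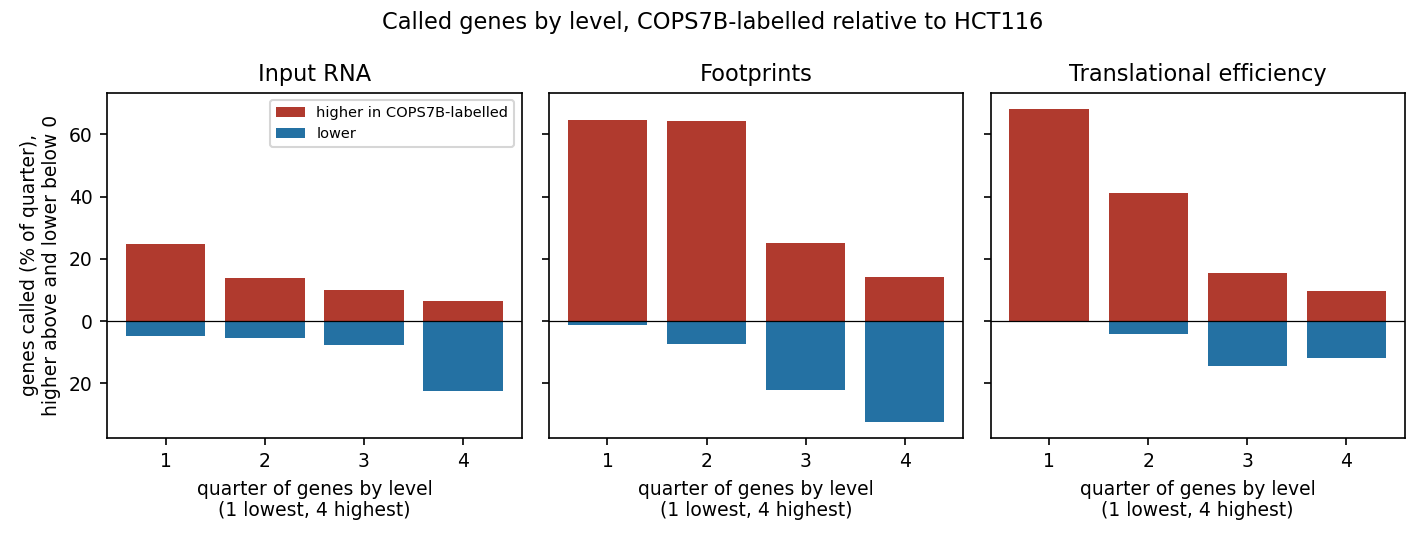
Bars show the percent of genes called higher (above 0) or lower (below 0) in the COPS7B population than in HCT116 (edgeR adjusted p under 0.05), for 4 equal groups of genes ordered by mean level, in input RNA, footprints and translational efficiency. In the lowest group most calls are higher (741 of 881, 1925 of 1961 and 1594 of 1597), and in the highest group most are lower (672 of 867, 968 of 1394 and 278 of 501).

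Of the genes with the largest input RNA changes, the first higher pair had HCT116 footprints without any HCT116 RNA count. The first lower pair had both. Most genes on in COPS7B input and at 0 counts in HCT116 input were unlike that higher pair. Of 467 such genes, 298 (63.8%) had no HCT116 footprint count either, and 73 (15.6%) were on in HCT116 footprints. Among 1170 higher and 1064 lower genes that passed the naming rule, the first pair in each direction is given. ENSG00000133124 stood at 439 and 607 CPM (trimmed-mean scaled, as for the other named genes) in COPS7B input and had no count in the input of HCT116 or of any other population. It was therefore at least 620-fold higher in COPS7B than in HCT116 input, taking a floor of 3 counts over the group and the lower 95% counting limit (edgeR adjusted p = 1.1e-06). Its footprints stood at 898 and 893 CPM in COPS7B, but also at 532 and 507 CPM in HCT116, from 538 and 522 counts without any RNA count. Vector footprints gave 39.5 and 71.5 CPM and parental HCT15 footprints 0. The COPS7B libraries were the higher ones in both assays and did not overlap with HCT116, yet the footprint ratio was only 1.72 (95% counting interval 1.62 to 1.84) and did not pass edgeR's test (adjusted p = 0.10).

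Like that gene, ENSG00000154277 had HCT116 footprints without an HCT116 RNA count, but its RNA was not confined to the COPS7B population. It stood at 263 and 354 CPM in COPS7B input and at 0 in HCT116 input, a difference of at least 361-fold (edgeR adjusted p = 2.7e-05). HCT116 footprints nevertheless held 139 and 136 CPM, against 381 and 372 in COPS7B, a ratio of 2.73 (2.42 to 3.10) with an edgeR adjusted p of 0.073. Vector input held none and vector footprints 8.43 and 26.8 CPM. Parental HCT15 input held 0 and 6.05 CPM. In 841CON the gene stood at 227 and 134 CPM in input and at 138 and 123 CPM in footprints. For both genes the footprint difference passed by DESeq2, by limma, without scaling by trimmed means and in a fit of the 8 libraries alone. For ENSG00000154277 it also passed without the filter on low counts.

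ENSG00000187678 led the lower genes. HCT116 held it at 257 and 273 CPM in input, and the COPS7B libraries had no count, so it was at least 461-fold lower in COPS7B (edgeR adjusted p = 2.3e-06). Parental HCT15 held 31.7 and 48.4 CPM and the vector 55.6 and 49.9 CPM, so it was present in every other HCT15 library. Footprints followed, at 57.4 and 78.6 CPM in HCT116 and 1.06 and 2.14 CPM in COPS7B, a 41.9-fold difference (24.9 to 75.4; edgeR adjusted p = 2.1e-05).

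ENSG00000101335 was at 266 and 251 CPM in HCT116 input and absent from COPS7B input, at least 446-fold lower (edgeR adjusted p = 0.0019). Its footprints were at 43.5 and 62.1 CPM in HCT116 and at 0.424 and 0.195 CPM in COPS7B, 174-fold lower with a wide counting interval of 57.9 to 856 that rests on 3 COPS7B counts (edgeR adjusted p = 0.0031). The vector was as low as COPS7B, with 0 and 0.908 CPM in input, and the parental HCT15 libraries disagreed, at 0 and 64.2 CPM. The footprint calls of both lower genes were lost at equal depth, where the fitted log2 difference was -2.48 for ENSG00000187678 against -5.35 in the full data (edgeR adjusted p = 0.26) and -8.45 for ENSG00000101335 against -7.19 (edgeR adjusted p = 0.071). The call of ENSG00000101335 was also lost with close pairs summed, at a fitted -7.39 (edgeR adjusted p = 0.066).

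**Figure D4:**
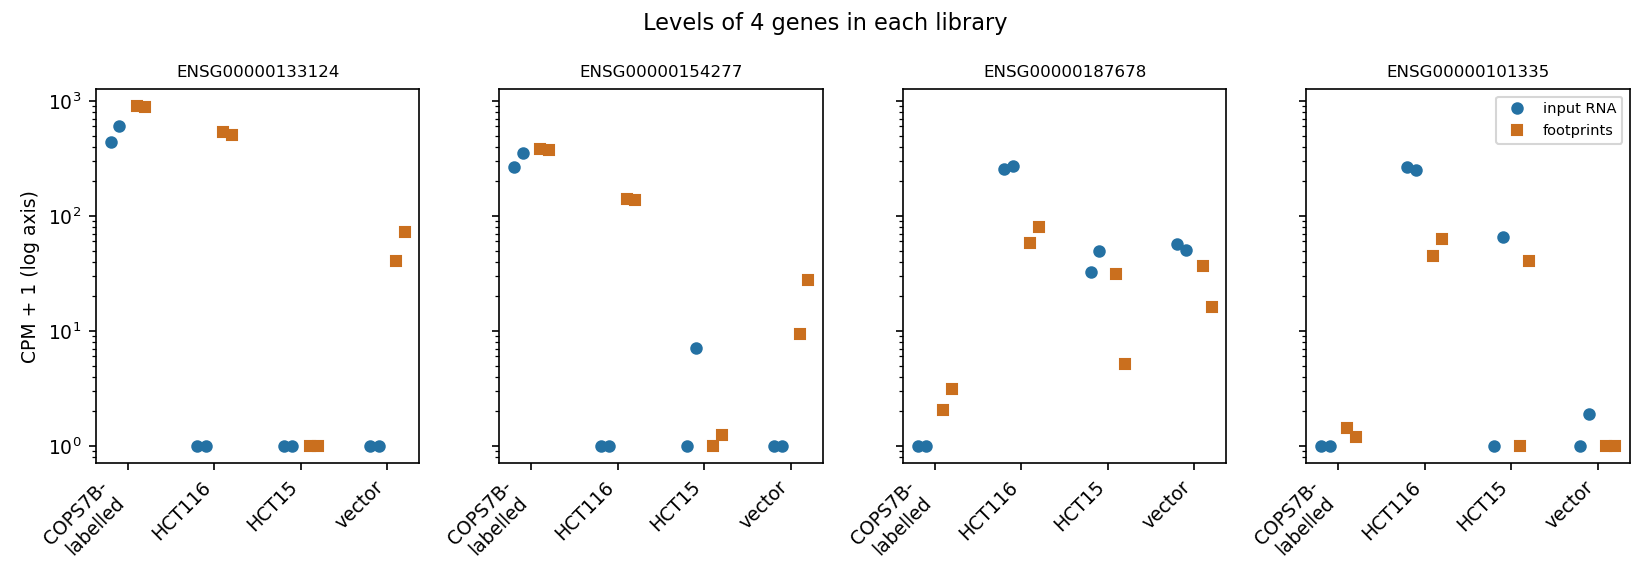
Points give CPM + 1 on a log axis in each library of 4 populations, with input RNA as circles and footprints as squares, for the 2 genes that led each direction. The HCT116 input points of ENSG00000133124 and ENSG00000154277 lie at 0 CPM while their HCT116 footprint points lie at 532 and 507 and at 139 and 136 CPM.

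Footprints differed for 6907 of 11938 genes, 57.9% of those tested, with 5023 higher (42.1%) and 1884 lower (15.8%) in COPS7B (edgeR, adjusted p under 0.05). Parental HCT15 differed from the same HCT116 footprint libraries for 6171 genes (51.7%) and the vector for 6284 (52.6%), so each HCT15 population gave a count of this order. Within HCT15 the counts were lower, with 4259 genes (35.7%) between COPS7B and parental footprints and 2071 (17.3%) between COPS7B and the vector. Of the 5023 higher genes, 2590 (51.6%) had 0 counts in the HCT116 footprint libraries, whereas 14 of the 1884 lower genes had none in COPS7B. Over all 11938 genes tested, 3226 had no HCT116 footprint count and 141 had none in COPS7B. As in input RNA the direction turned with level: 1925 of 1961 calls were higher among the genes with fewest footprints, and 968 of 1394 were lower among those with most. Lower genes outnumbered higher ones where each population averaged at least 50 footprint counts (219 higher, 1242 lower of 4132 tested), among genes counted in every compared library (1377 and 1728) and at equal depth (211 and 358). The cuts on raw counts do not treat the populations alike, because the HCT116 footprint libraries are shallower. A gene needs a higher CPM there to pass, so genes higher in COPS7B are dropped more often. The balance under these cuts is therefore partly set by the choice of genes. With close pairs summed, 2519 were higher and 554 lower.

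RNA and footprint differences agreed in direction for most genes called in both. Of 1905 such genes, 1679 (88.1%) moved the same way, with 1079 higher and 600 lower. Of the 5023 genes with higher footprints 3800 had no called RNA difference, and of the 1884 with lower footprints 1202 had none. Only 2856 of all 11938 genes (23.9%) had a called RNA difference, and 4080 were called in neither assay. A missing RNA call was thus the usual case, whatever the footprints did. Across all 11938 genes the 2 fitted log2 differences correlated at r = 0.393, and at 0.343 over the 7128 genes counted in all 8 libraries, as a description over genes that share the same libraries. For those 7128 genes the median log2 difference was -0.11 in RNA and -0.25 in footprints. Over all 11938 genes, of which 3226 had no HCT116 footprint count, the footprint median was 1.02.

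**Figure D5:**
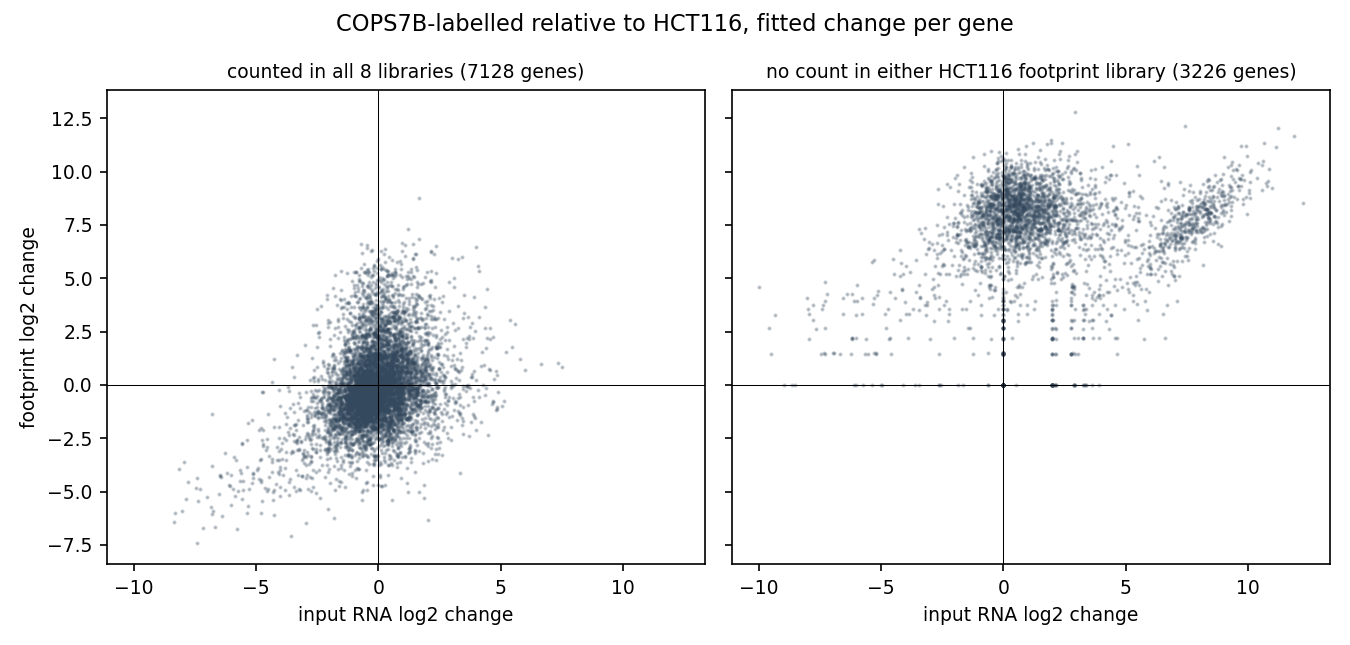
Each point is a gene, with its fitted log2 difference between the COPS7B population and HCT116 in input RNA (horizontal) and in footprints (vertical), for 7128 genes counted in all 8 libraries (left) and 3226 genes without a footprint count in either HCT116 library (right). The right panel has no negative footprint value by construction, and its fitted sizes depend on the small count added by the fit and are not bounds.

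Translational efficiency was higher in the COPS7B population for 3135 (33.6%) and lower for 712 (7.62%) of 9339 genes tested, 41.2% in all (edgeR's quasi-likelihood test of the interaction between assay and population, adjusted p under 0.05). Of the 3135 higher genes, 1445 (46.1%) had no HCT116 footprint, as had 1718 of all 9339 genes tested. Of the 3847 genes called for TE, 83.0% had no called RNA difference (2668 of the higher and 524 of the lower), a share close to the 83.6% of all 9339 genes tested. Among genes called for both, 311 genes with higher TE had lower RNA, and 173 with lower TE had higher RNA, against 156 and 15 that moved together. Input RNA enters both quantities with opposite signs, so noise in it alone can give opposed calls. For the genes counted in all 8 libraries the median log2 TE difference was 0.0055, and 889 were higher and 549 lower among the 6776 genes counted in every compared library. Where RNA and footprints each averaged 50 counts or more per population the balance turned, with 95 higher and 157 lower of 3362 tested. As for footprints, this cut drops genes with few HCT116 footprint counts, so the turn is partly set by the choice of genes. At equal depth, set by the shallowest SW620 footprint library, edgeR called 0 genes (992 at an unadjusted p under 0.05), whereas with footprints thinned only to the depth of HCT116 it called 3589.

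HCT116 footprints and HCT116 input RNA covered different genes to a degree not seen in the COPS7B libraries. Of 6408 genes that averaged at least 50 counts in HCT116 input, 623 (9.72%) went without a count in the HCT116 footprint libraries. In the COPS7B population this held for 11 of 8734 such genes (0.126%), and for 18 (0.206%) when its footprints were thinned to 997844 counts. Over the 5895 genes with at least 50 input counts in both populations, 508 lacked HCT116 footprints and 9 lacked COPS7B footprints at that matched depth. A further 519 had 1 to 5 HCT116 footprint counts, against 26 in the thinned COPS7B libraries. Of the 623 genes, 462 were on in COPS7B footprints, 362 in those of the vector, 350 in SW620, 315 in parental HCT15 and 276 in 841CON. Over all 20426 shared genes the shares on were 47.6%, 39.9%, 37.2%, 35.8% and 37.5% in the same order. Of those genes 8463 had no count in HCT116 input, so they are no matched base for genes chosen for their RNA. The shares on among the 6408 genes were not computed, and no enrichment can be read from these counts.

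The opposite case, footprints without RNA, was also counted. In HCT116 182 genes stood at 10 CPM or more in both footprint libraries with no input count, and they took 1.38% of HCT116 footprint counts. The number was 23 in COPS7B, 35 in the vector, 31 in parental HCT15, 49 in 841CON and 73 in SW620, whose footprint libraries are far shallower and held 1.53% of their counts in such genes. Of the 182 genes, 73 (40.1%) were on in COPS7B input RNA, against 48 in 841CON, 29 in the vector, 26 in SW620 and 23 in parental HCT15. The shares among all 8463 genes off in HCT116 input were 5.52% in COPS7B, 4.41% in 841CON, 2.35% in the vector, 2.72% in SW620 and 1.77% in parental HCT15. In footprints 108 of the 182 (59.3%) were on in COPS7B, 67 in 841CON, 61 in the vector, 53 in SW620 and 46 in parental HCT15. The footprint shares among the 8463 genes were 6.32%, 5.66%, 2.84%, 4.15% and 1.90% in that order. None of the 182 genes enters the TE test, which asks for a mean of at least 10 input counts in each population. Genes with HCT116 RNA and no HCT116 footprint do enter it, and the part of that mismatch in the TE calls was not tested.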

How the data were processed

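The authors deposited 1 table of raw read counts per Ensembl gene for each library. Per the submitters' processing notes, cutadapt 3.5, STAR 2.7.9 and HTSeq 2.0.2 were used with GRCh38; the role of each, the annotation, strand and multi-mapping settings are not stated in the sources used here, so counts of near-identical, overlapping or antisense genes are uncertain. INPUT tables list 60623 genes. The 20426 genes of the RPF tables are all among them and were used in the tests. In COPS7B, 18.8% and 12.2% of INPUT counts fell outside these genes, against 27.0% and 28.0% in HCT116.

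One edgeR quasi-likelihood model (edgeR 4.0.16, R 4.3.3) with 12 group means was fitted to all 24 libraries, leaving 12 residual degrees of freedom, after a minimum count of 10 in each assay and trimmed-mean scaling within each assay. Trimmed means set a weighted average of the genes left after trimming to no change, so a shift common to all genes cannot be seen. The median gene can still differ: between COPS7B and HCT116 its log2 difference was 1.02 in footprints and 0.17 in input RNA. TE was tested where INPUT averaged 10 counts or more in each population. The 11 contrasts were each adjusted over all genes tested. DESeq2 1.42.0 and limma 3.58.1 were alternatives.

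Gene lists and rules were chosen with earlier results of these data known. The lists, and the requirement of a symbol for named genes, could not be applied because the files do not pair identifiers with names. The 2 genes per direction with the largest fitted INPUT change were named among called genes whose libraries did not overlap and which averaged at least 50 counts in the higher population. Counting intervals are 95% and cover counting error only.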

Additional observations from a re-analysis of the deposited data

Results flagged for a closer look

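The COPS7B population differed from the other HCT15 populations under the same contrast with HCT116, by a direct edgeR test of that difference (Benjamini-Hochberg adjusted p under 0.05, n = 2 per group). In input RNA 3162 genes differed between COPS7B-labelled and parental HCT15, and 2088 between COPS7B-labelled and vector HCT15. In footprints the numbers were 4259 and 2071.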

How the results depend on the processing

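Of 201 recomputed main results 129 stayed within 1.5 times the reported count or within the spread, and 72 did not. A count of calls has no sign, and the balance of higher and lower calls did turn in some settings. Among genes averaging 50 counts, 21.2% of RNA, 14.99% of footprint and 37.7% of TE calls were higher, with median log2 differences of -0.28, -0.69 and -0.21. For footprints and TE this cut itself favours lower calls, since the HCT116 footprint libraries are shallower than those of COPS7B. The cause of each change was not tested unless fewer genes or libraries enter by construction. For input RNA, footprints and TE between COPS7B and HCT116, the calls were 797, 1461 and 252 with a mean of at least 50 counts, 1683, 3105 and 1438 among genes counted in every compared library, 533, 3073 and 1386 with close replicate pairs summed, and 181, 569 and 0 at equal depth (992 for TE at an unadjusted p under 0.05 in edgeR; DESeq2 at full depth called 4248). A fit of the 8 libraries alone called 7240 for RNA and 6854 for TE, and a test for at least a 2-fold change 1571 for RNA. With close pairs summed, the RNA calls were 525 for parental HCT15 and 409 for the vector against HCT116, and 1958 and 1096 for COPS7B against parental HCT15 and the vector; the footprint calls were 3952, 3694, 1474 and 335. A replicate block, with the replicate number as a term, gave 2731, 6801 and 3761 calls and changed no call of a named gene. Among the COPS7B and HCT116 groups, same-numbered libraries did not deviate together (correlations of -0.0070 to 0.015). Replicates of HCT116 INPUT, HCT116 RPF and COPS7B RPF differed by little more than counting noise, however. These correlations therefore cannot show whether same-numbered libraries were paired.

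Leaving out 1 library at a time gave 1073 to 1686 RNA, 4841 to 5480 footprint and 2598 to 3132 TE calls between COPS7B and HCT116. The RNA range was 1100 to 2835 for parental HCT15 and 829 to 1190 for the vector against HCT116, and 1972 to 3523 and 978 to 1209 for COPS7B against parental HCT15 and the vector. The footprint ranges were 4611 to 5915, 4405 to 5280, 2578 to 5046 and 763 to 1365. The share of genes nearer to HCT116 ranged from 47.45% to 50.96% (against parental HCT15) and 39.07% to 41.32% (against the vector) in input, and from 33.22% to 33.93% and 26.39% to 26.92% in footprints.

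The difference of COPS7B from HCT116 in input was 1.924 without trimmed means, 1.075 with a pseudocount of 10 CPM, 0.9713 among genes averaging 50 counts and 1.912 at equal depth. In footprints it was 2.913, 1.438, 1.207 and 4.214, and 2.826 with footprints thinned to the shallowest compared library, an alternative chosen after seeing the data. Under the same 5 settings the share of genes nearer to HCT116 than to parental HCT15 in footprints was 33.2%, 35.06%, 51.66%, 39.31% and 34.3%, and than to the vector 27.84%, 27.75%, 38%, 39.19% and 27.76%. In footprints the cut at 50 counts drops genes with few or no HCT116 footprint counts, so its values are partly set by the choice of genes. At equal depth footprint libraries hold 84262 counts, few for most genes. The shares of the 87 and 124 genes on in COPS7B stayed within their counting intervals at 20 CPM, with up to 3 counts as off, and without each of the 8 INPUT libraries of COPS7B, HCT116, parental and vector HCT15. RPF libraries were not left out for these shares, and the other sets of on and off genes were not recomputed without single libraries.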

Other observations

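Genes present in the COPS7B population and absent from HCT116 were more numerous than the reverse. Input RNA of 467 genes was on in COPS7B (10 CPM or more in both libraries) and at 0 counts in HCT116, whereas 68 genes were on in HCT116 and at 0 in COPS7B. With up to 3 counts taken as off the numbers were 618 and 145, and with on set at 20 CPM 260 and 45. Of the 467, 381 were on in COPS7B footprints, and 135 were on in 841CON input, 78 in SW620 input, 57 in vector input and 42 in parental HCT15 input. Of the 68, none was on in COPS7B footprints, while 50 had some count there, and 33 were on in vector input and 23 in parental HCT15 input. COPS7B input also detected more shared genes than HCT116 input, at 13633 and 14496 against 11720 and 11668. Over all 20426 shared genes, 49.5% were on in COPS7B input and 41.8% in HCT116 input.

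The 22 genes on in the input RNA of HCT116, parental HCT15 and the vector but at 0 in COPS7B input were low in COPS7B footprints as well, where they summed to 32.4 and 38.5 CPM and 21 of them had some count. In HCT116 footprints they summed to 1410 and 1507 CPM, in parental HCT15 to 2506 and 2078 CPM, and in the vector to 2033 and 1925 CPM. SW620 had 12 of the 22 on in input RNA. RNA and footprints of the COPS7B population were thus both low for these genes, in libraries counted separately.

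The most abundant genes took less of the COPS7B libraries than of the HCT116 ones. The top 100 genes held 15.9% and 13.4% of shared counts in COPS7B input, against 25.8% and 26.4% in HCT116 input, and 16.0% in both COPS7B footprint libraries against 21.7% and 21.6% in HCT116. Scaling by trimmed means compensates for such differences and gave factors of 1.20 and 1.23 in COPS7B input and 0.903 and 0.885 in HCT116 input.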
